A study of Mus musculus with 84 samples.

Results

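Methidathion (MT) is an organophosphate pesticide, and the comparison described here is that of livers from 7 mice fed MT at 50 ppm (MT50ppm) with livers from 7 control mice (Con0ppm), chosen by the treatment label from 84 mice in 12 groups of 7. All mice were male B6C3F1 hybrids, 8 weeks old, and received the purified diet AIN-93G with or without MT for 7 days. Both groups were spread over the same blocks of the experiment, with 2 mice from block 1, 3 from block 3 and 2 from block 4. Expression Analysis Genomic Services (EA) prepared the RNA of all 7 MT50ppm mice and 5 controls, and the U.S. EPA prepared that of the other 2 controls. The mice were housed in groups, and since the labels do not give cages, p-values below treat every mouse as independent.

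The liver answers many foreign compounds through the nuclear receptors CAR (Nr1i3) and PXR (Nr1i2). Once activated, these receptors bind pairs of short hexamer half-sites in DNA with RXR and switch on cytochromes P450 of the Cyp2b, Cyp2c and Cyp3a families, conjugating enzymes and transporters, which together make lipophilic compounds easier to excrete. Organophosphates themselves act on acetylcholinesterase (Ache) and other serine hydrolases, including liver carboxylesterases, and thions such as MT are turned into the more reactive oxon by P450s. In bulk liver RNA, more RNA per cell and more cells of a type cannot be told apart.

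Gene expression was measured by TempO-Seq, a targeted assay in which paired detector oligos are ligated on a transcript, amplified and sequenced. Levels are given as CPM, a count divided by the library's total and multiplied by 1000000, and because each gene has its own oligos they are compared between mice and not between genes. Total counts ran from 6950381 to 13479545 in the MT50ppm mice and from 9840552 to 13326762 in the controls. The shallowest library of the comparison was an MT50ppm mouse of block 1 (replicate 1). The groups did not differ detectably in total counts (exact permutation test, two-sided, p = 0.448, n = 7 each). The block 1 control, replicate 1, had the lowest median rank correlation with the other 13 livers, 0.966, against 0.974 to 0.984 for the rest. Hepatocyte markers summed to between 38429 and 48502 CPM in the MT50ppm mice and between 32955 and 60077 CPM in the controls, so the tissue matched its label. Summed markers of Kupffer cells, T and NK cells, B cells, neutrophils, endothelial cells, stellate cells, cholangiocytes, erythroid cells, acinar cells and adipocytes overlapped between the groups, and no marker gene passed the test.

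Between MT50ppm and control livers 1 gene was called, Cyp2c29. This P450 belongs to the arachidonic acid and xenobiotic metabolising Cyp2c family and is a known CAR target in mouse liver. It was tested with edgeR's quasi-likelihood test on the 10415 genes with a median count above 8, with block and RNA isolator as covariates, and called at a Benjamini-Hochberg adjusted p under 0.05 and at least a 2-fold change. One gene of 10415 is 0.0096% of those tested, and no further gene passed the adjusted p at any fold (again 0.0096%). The genes that were not called are not thereby shown to be unchanged. Without adjustment, 228 genes (2.19%) were higher and 188 (1.81%) lower at p under 0.05. The median log2 fold change of all genes was 0.0029.

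Cyp2c29 (ENSMUSG00000003053, chromosome 19, 39257849 to 39319157, GRCm39) lies in the cluster of Cyp2c genes. The 7 controls had 869, 1032, 593, 919, 749, 1198 and 1579 CPM, in the order of blocks 1, 1, 3, 3, 3, 4 and 4. The MT50ppm mice, in the same block order, had 2032, 1798, 1987, 3132, 2226, 3099 and 3121 CPM. The lowest MT50ppm mouse was thus above the highest control, and the same held within each block. The group means were 2485 ± 604 CPM (SD, n = 7) at 50 ppm and 991 ± 324 CPM (SD, n = 7) in the controls. The fitted fold change was 2.42 (95% confidence interval 1.82 to 3.23), or 1.28 on the log2 scale with a standard error of 0.21 (edgeR adjusted p = 4.02e-04). An exact permutation test on the log2 CPM of the same 14 mice gave p = 5.83e-04 (two-sided), for a difference of 1.35. This is the smallest p the design can give, and since the gene was chosen with its values in these mice known, it adds no independent support. Within block 1 the mean log2 CPM was 1.01 higher at 50 ppm, within block 3 1.69 higher and within block 4 1.18 higher. Cyp2c29 remained the only gene called when any 1 of the 14 mice was left out, and leaving out the shallow MT50ppm mouse moved its log2 fold change to 1.30 (edgeR adjusted p = 6.31e-04). Comparing the MT50ppm mice with only the 5 controls isolated at EA gave 1.19 in the fit to EA mice (edgeR adjusted p = 0.0114).

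**Figure D1:**
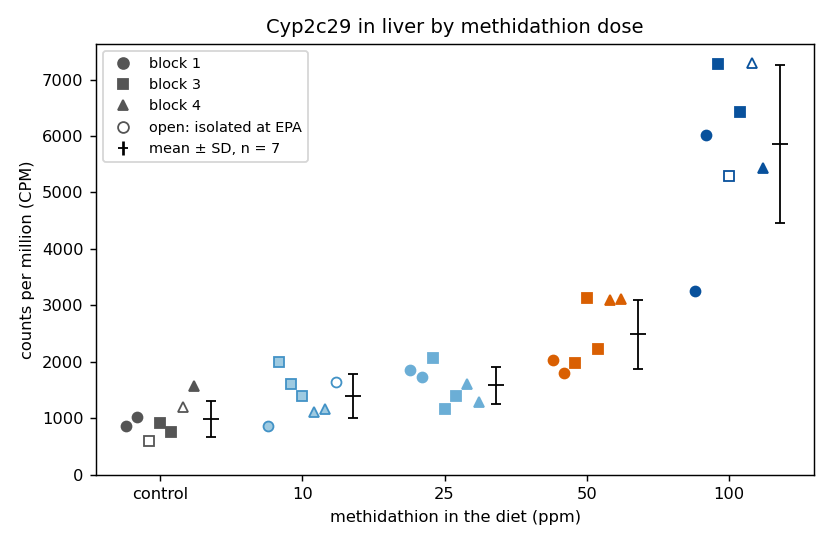
CPM of Cyp2c29 in each mouse (vertical axis) at control, 10, 25, 50 and 100 ppm MT (horizontal axis). Symbols mark the block, open symbols RNA isolated at EPA, and bars the mean ± SD of 7 mice. The 7 mice at 50 ppm lie between 1798 and 3132 CPM, above all controls and below all mice at 100 ppm.

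Set beside the other MT doses, 50 ppm held a middle place for Cyp2c29. The mice at 10 ppm spanned 861 to 2005 CPM, those at 25 ppm 1158 to 2061 CPM and those at 100 ppm 3249 to 7295 CPM. The values at 10 and 25 ppm overlapped each other, the controls and the lowest mice at 50 ppm, whereas 50 and 100 ppm did not overlap. In direct contrasts between doses Cyp2c29 was 1.27 lower on the log2 scale at 50 than at 100 ppm, a log2 fold change of -1.27 with a standard error of 0.21 (edgeR adjusted p = 5.40e-04). Against 25 ppm the log2 fold change was 0.59 (standard error 0.20, unadjusted p = 0.00478, adjusted p = 0.999) and against 10 ppm 0.83 (standard error 0.20, unadjusted p = 1.13e-04, adjusted p = 0.168), both from edgeR and neither passing the adjustment in the model of all mice. With the mice of the 2 groups alone, Cyp2c29 did pass against 10 ppm, with a log2 fold change of 0.94 (edgeR adjusted p = 0.0225). Against the shared controls, the log2 fold changes were 0.44 at 10 ppm, 0.69 at 25 ppm, 1.28 at 50 ppm and 2.54 at 100 ppm.

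Cyp2c55, Cyp2c50 and Cyp2c54 are further members of the Cyp2c cluster on chromosome 19, and their promoters are shown because these were the family members besides Cyp2c29 with an unadjusted p under 0.05. Each sequence is the 250 bases before the canonical transcript start on the coding strand of GRCm39, and capitals mark AGGTCA or AGTTCA on either strand, the hexamer half-sites used by RXR partners.
Cyp2c29 (chr19:39275268-39275517, plus strand): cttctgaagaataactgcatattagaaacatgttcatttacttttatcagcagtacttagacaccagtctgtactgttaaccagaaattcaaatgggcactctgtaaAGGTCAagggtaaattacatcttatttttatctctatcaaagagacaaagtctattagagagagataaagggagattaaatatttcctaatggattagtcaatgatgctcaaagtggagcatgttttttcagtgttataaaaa
Cyp2c55 (chr19:38995212-38995461, plus strand): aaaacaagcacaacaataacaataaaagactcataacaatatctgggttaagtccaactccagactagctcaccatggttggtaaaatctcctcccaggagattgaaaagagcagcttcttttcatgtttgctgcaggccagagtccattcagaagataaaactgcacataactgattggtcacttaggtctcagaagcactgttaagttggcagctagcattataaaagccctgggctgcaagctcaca
Cyp2c50 (chr19:40077835-40078084, plus strand): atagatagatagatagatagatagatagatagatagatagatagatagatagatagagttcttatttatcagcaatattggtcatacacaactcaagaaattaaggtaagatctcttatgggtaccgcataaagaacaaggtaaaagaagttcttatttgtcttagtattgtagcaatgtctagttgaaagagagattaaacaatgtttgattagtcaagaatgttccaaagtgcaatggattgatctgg
Cyp2c54 (chr19:40062283-40062532, minus strand): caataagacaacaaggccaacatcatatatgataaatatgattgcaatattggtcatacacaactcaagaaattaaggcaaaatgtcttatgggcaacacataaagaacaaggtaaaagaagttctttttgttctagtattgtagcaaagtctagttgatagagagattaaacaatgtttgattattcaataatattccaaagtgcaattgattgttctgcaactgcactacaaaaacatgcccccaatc
The Cyp2c29 promoter held 1 such hexamer, with its first base 143 bases before the start, and the other 3 promoters held none. Of 21770 promoters of protein-coding genes of the same length, 23.4% held at least 1, and 4 promoters in all, none of them shown here, held 2 half-sites in direct repeat with 4 bases between. The promoters of Cyp2c50 and Cyp2c54 were 78.4% identical, and that of Cyp2c29 was 63.2% identical to Cyp2c50 and 59.2% to Cyp2c55. These letters are a description of the window and say nothing of binding.

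Cyp2c55, a P450 that is low in untreated liver, had the next smallest p-value. The controls had 0.783, 1.87, 1.35, 1.59, 1.93, 4.00 and 3.58 CPM. The MT50ppm mice had 3.31, 2.02, 3.28, 6.31, 4.29, 7.94 and 7.79 CPM. The groups overlapped, with 4 of 7 MT50ppm mice above every control, but within each of the 3 blocks the MT50ppm mice were all above their controls. The log2 fold change was 1.22 with a standard error of 0.30 (unadjusted p = 9.83e-05, edgeR adjusted p = 0.492), so this gene was not called at 50 ppm. At 100 ppm, where it ran from 6.73 to 22.9 CPM, it differed from 50 ppm by a log2 fold change of -1.55, MT50ppm lower, with a standard error of 0.26 (edgeR adjusted p = 5.95e-04). None of the counts of this gene was fractional, whereas counts of Cyp2c29 were fractional in 94.0% of all 84 mice, a sign that the counting shared reads between genes.

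Cyp2c50 lay between 13.6 and 72.6 CPM in the controls (median 51.5) and between 80.4 and 168 CPM at 50 ppm (median 87.7). The groups did not overlap. Its log2 fold change was 0.97 with a standard error of 0.27 (unadjusted p = 7.01e-04, edgeR adjusted p = 0.999). Cyp2c54 lay between 167 and 314 CPM in the controls and between 237 and 698 CPM at 50 ppm, overlapping, and its log2 fold change was 0.68 with a standard error of 0.22 (edgeR adjusted p = 0.999). In block 1 Cyp2c54 was not higher at 50 ppm, with 237 and 270 CPM against 233 and 306 CPM in the controls. Of all 10415 genes, 3 (0.0288%) had every MT50ppm mouse above every control and 0 (0%) had every MT50ppm mouse below. The 3 were Cyp2c29, Cyp2c50 and Tifab. By the exact permutation test (two-sided) a gene that separates 7 from 7 mice has p = 5.83e-04. Among 10415 genes some would therefore separate with no effect, and the share that did was not above this p. Separation alone thus does not set these 3 genes apart.

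The sites of the assay's detector oligos were not used here, so sequence shared between paralogs was counted over whole transcripts. Of the 50-base stretches in the longest coding transcript, 28.3% of Cyp2c50, 27.7% of Cyp2c37 and 14.99% of Cyp2c54 also occurred in coding transcripts of another gene, against 1.44% for Cyp2c29 and 0 for Cyp2c55. Counts of Cyp2c50 were fractional in every mouse. These shares do not follow the fractional counts, which were frequent for Cyp2c29 although it shared little. Where counts were fractional, as for Cyp2c29 and Cyp2c50, it is uncertain to which gene the shared reads belong.

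**Figure D2:**
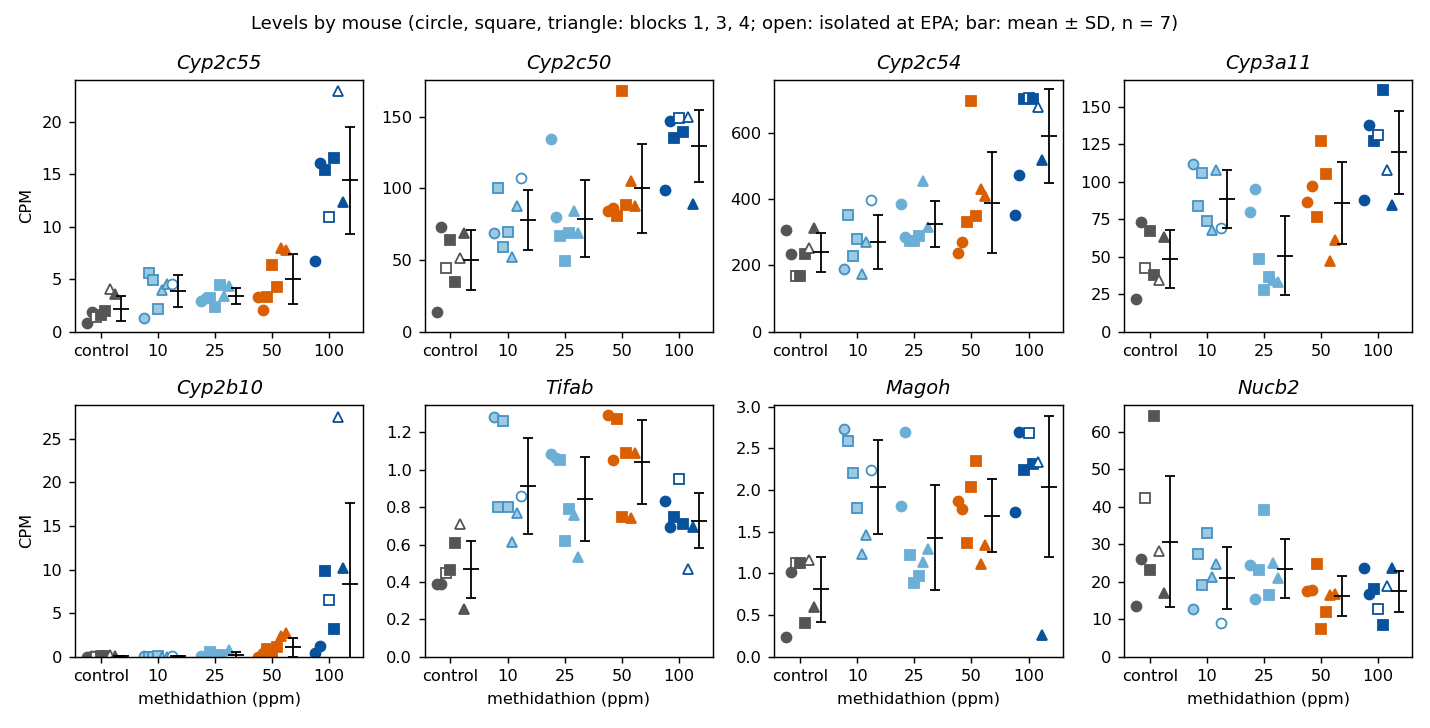
CPM in each mouse (vertical axes) by MT dose (horizontal axes) for 8 genes, with symbols by block, open symbols for RNA isolated at EPA, and the mean ± SD of 7 mice. Cyp2c50 and Tifab at 50 ppm lie above all controls, while the other genes overlap the controls.

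Across the Cyp2c family, 11 of the 16 listed genes were measured above the count limit. All 11 had a log2 fold change above 0, with a median of 0.50 beside 0.0029 for all genes, 4 had an unadjusted p under 0.05 (beside 2.19% of all genes) and 1 was called. The smallest differences were those of Cyp2c67 (0.04), Cyp2c70 (0.06), Cyp2c68 (0.07) and Cyp2c40 (0.09). The family was chosen with earlier results of these data known. Some members, such as Cyp2c50 and Cyp2c37, share transcript sequence, and the members may not be independent.

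The wider list of CAR and PXR targets held 42 genes, of which 36 were tested. Of these, 29 had a log2 fold change above 0 and 7 below, and the median was 0.26. At an unadjusted p under 0.05, 8 were higher and 0 lower, beside 2.19% and 1.81% of all genes, and Cyp2c29 alone was called. This list too was chosen with earlier results of these data known, and its members are not independent. Besides the Cyp2c genes, the 8 were the hepatic P450s Cyp3a11 and Cyp3a16, the bilirubin glucuronosyltransferase Ugt1a1 and the organic anion uptake transporter Slco1a4.

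Cyp3a11, the main inducible PXR target among mouse P450s, ran from 21.8 to 73.2 CPM in the controls and from 46.9 to 127 CPM at 50 ppm. Its log2 fold change was 0.70 with a standard error of 0.25 (edgeR adjusted p = 0.999). It was higher at 50 than at 25 ppm, with a log2 fold change of 0.74 (unadjusted p = 0.00308, edgeR adjusted p = 0.999), and its levels at 10 ppm (67.7 to 112 CPM) were as high as at 50 ppm, so its values did not follow the dose order. The fold changes on the log2 scale were 0.78 (standard error 0.30) for Slco1a4, 0.74 (standard error 0.27) for Cyp3a16 and 0.29 (standard error 0.11) for Ugt1a1. In each of these the groups overlapped, with 2, 3 and 0 MT50ppm mice above every control. Ugt1a1 shares 71.3% of its 50-base stretches with other Ugt1a transcripts.

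The receptors themselves did not pass the test. Nr1i3 ran from 128 to 328 CPM in the controls and from 145 to 419 CPM at 50 ppm, with a log2 fold change of 0.26 (95% confidence interval -0.20 to 0.73). Nr1i2 ran from 28.3 to 63.3 CPM and from 36.8 to 46.6 CPM, with a log2 fold change of -0.14 (95% confidence interval -0.38 to 0.09). Por, the electron donor of the microsomal P450s, was at 0.22 (standard error 0.31), and Alas1, the first enzyme of heme synthesis, at 0.24 (standard error 0.64).

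**Figure D3:**
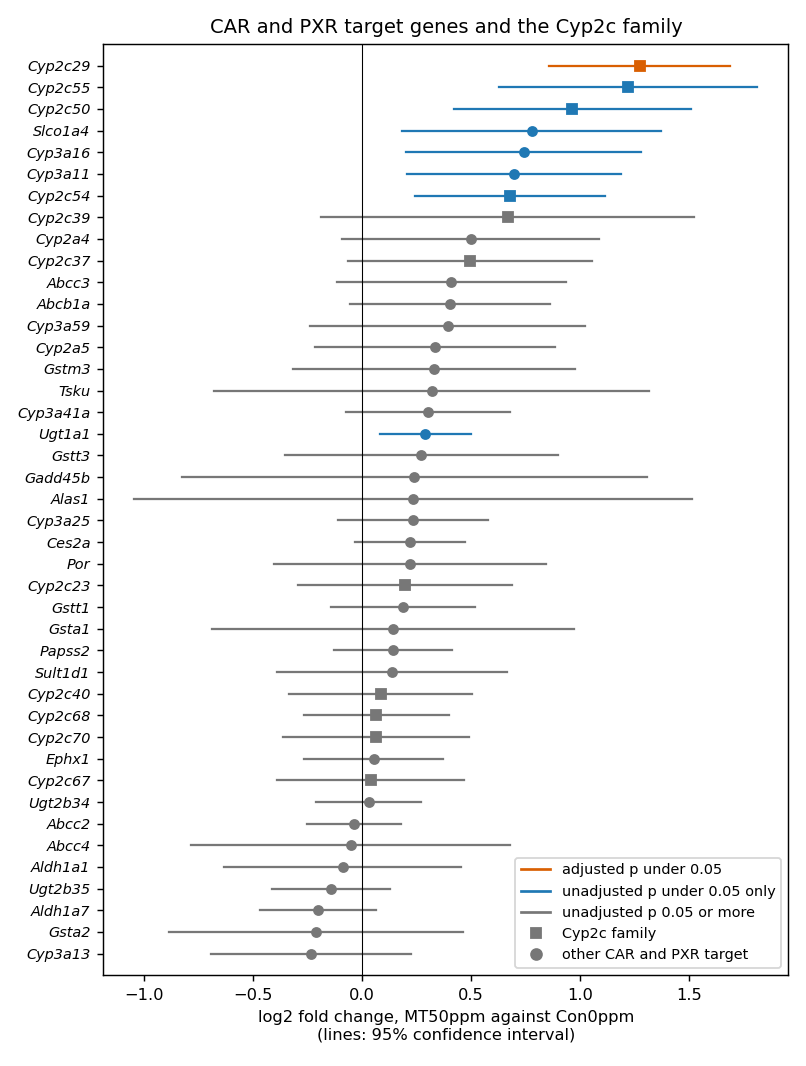
Log2 fold change of MT50ppm against Con0ppm (horizontal axis) with 95% confidence intervals for the tested CAR and PXR targets and Cyp2c genes (vertical axis, one gene per line). Cyp2c29 (1.28) is the gene with an adjusted p under 0.05, and most point estimates lie to the right of 0.

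Cyp2b10, the classical CAR target of mouse liver, was below the count limit and is named here after its values were seen. Its counts in the controls were 0, 1, 0, 1, 1, 2 and 1. In the MT50ppm mice they were 0, 5, 10, 1, 14, 32 and 32, or 0 to 2.68 CPM. In 5 of 7 MT50ppm mice the CPM was above that of every control, whose highest was 0.178 CPM, and in the remaining MT50ppm mice, 1 of block 1 and 1 of block 3, it was not. A count of 3, the level taken as measured, corresponds to between 0.225 and 0.305 CPM in the controls, which were all under it. In the MT50ppm livers it corresponds to between 0.223 and 0.432 CPM, and the mice with counts of 0 and 1 were also under it. With no filter on low counts the unadjusted p was 5.72e-05 and the edgeR adjusted p 0.506, so the gene was not called. At 100 ppm it ran from 0.454 to 27.5 CPM. Cyp2b13 had no counts in either group, and Cyp2b9 had at most 1.

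Outside the P450s, Tifab, an inhibitor of TIFA signalling in innate immunity, had the next smallest p-value. The controls ran from 0.256 to 0.712 CPM and the MT50ppm mice from 0.742 to 1.29 CPM, without overlap, but these values rest on 3 to 8 counts and 7 to 14 counts per mouse. Its log2 fold change was 1.07 with a standard error of 0.27 (edgeR adjusted p = 0.492). The mice at 10 ppm (0.614 to 1.28 CPM), 25 ppm (0.536 to 1.08 CPM) and 100 ppm (0.467 to 0.952 CPM) overlapped both of these groups. Against the controls the log2 fold changes at those doses were 0.92, 0.84 and 0.64, so they did not follow the dose order. Since all contrasts share the 7 controls, they are not independent of that at 50 ppm. Magoh, a core subunit of the exon junction complex, ran from 0.235 to 1.16 CPM in the controls and from 1.11 to 2.35 CPM at 50 ppm, with a log2 fold change of 1.20 (standard error 0.33, edgeR adjusted p = 0.999). Magoh was as high at 10 ppm, with 1.23 to 2.73 CPM.

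The 5 lower genes with the smallest p-values were Gm4617, Mroh1, Ppib, Nucb2 and Commd8, none of which passed the adjustment (edgeR adjusted p = 0.999 for each). Ppib, a prolyl isomerase of the endoplasmic reticulum, ran from 291 to 430 CPM in the controls and from 246 to 341 CPM at 50 ppm (log2 fold change -0.36, standard error 0.11). Nucb2, a calcium-binding protein and the precursor of nesfatin, ran from 13.5 to 64.2 CPM and from 7.48 to 24.8 CPM (log2 fold change -0.99, standard error 0.30). For Nucb2 the difference within block 1 was -0.09 and within block 3 -1.60 on the log2 scale, with 2 of 7 MT50ppm mice below every control. The log2 fold changes of Gm4617, Mroh1 and Commd8 were -0.28, -0.34 and -0.36, and the groups overlapped for each. In the plain CPM Gm4617 showed little of this, at 18.4 to 34.3 in the controls and 20.3 to 26.2 at 50 ppm.

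**Figure D4:**
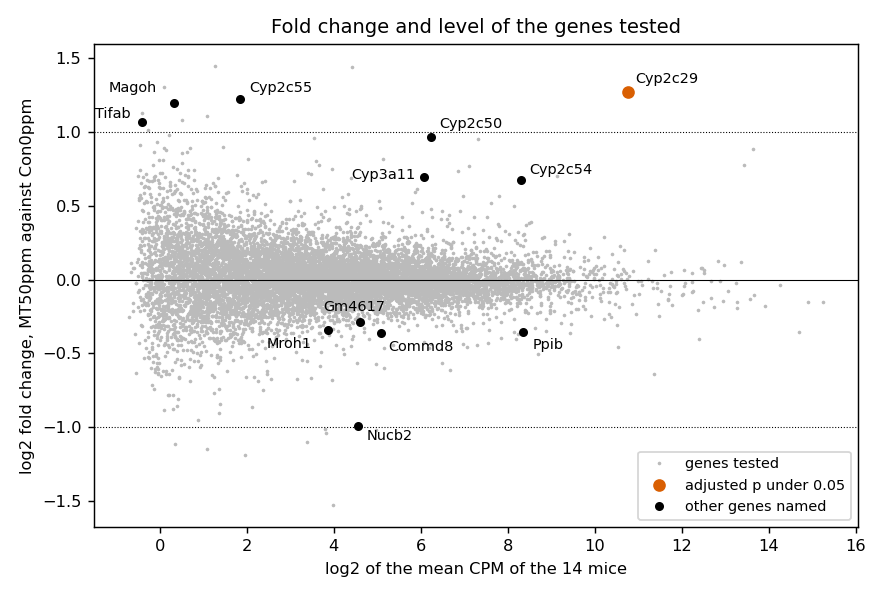
Log2 fold change of MT50ppm against Con0ppm (vertical axis) against the log2 of the mean CPM of the 14 mice (horizontal axis), 1 point per tested gene, with dotted lines at a 2-fold change. Cyp2c29 is the labelled gene with an adjusted p under 0.05.

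Esterases and related hydrolases, among them serine hydrolases that organophosphates bind, were also measured. Ache, the neural target of organophosphates, was at 0 to 0.975 CPM in the controls and 0.0838 to 0.748 CPM at 50 ppm. It was below the count limit for the test. Of 36 listed esterases and related hydrolases 30 were tested, 21 with a log2 fold change above 0 and 9 below, with a median of 0.07. None was called. At an unadjusted p under 0.05, 0 were higher and 1 lower, beside 2.19% and 1.81% of all genes. The lower gene was the lactonase Pon2 (log2 fold change -0.30, standard error 0.14). The extremes were the carboxylesterases Ces1d at 0.53 (standard error 0.31) and Ces1b at -0.37 (standard error 0.30). For the other enzymes of biotransformation the medians were 0.17 for 4 flavin monooxygenases, 0.11 for 18 glutathione S-transferases and 0.06 for 25 glucuronosyltransferases and sulfotransferases, with 0 called in each. With the mice isolated at EA alone the median of the glutathione S-transferases was -0.025, and without Con0ppm replicate 1 that of the flavin monooxygenases was 0.023. Their extremes were Fmo1 (-0.04) and Fmo4 (0.33), Gstp2 (-0.24) and Gstt2 (0.43), and the estrogen sulfotransferase Sult1e1 (-0.64) and Sult5a1 (0.62).

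The tested targets of other sensors stayed without a call. The AhR targets Cyp1a1, Cyp1b1 and Aldh3a1 did not pass the count limit and were not tested. The same held for several PPAR alpha targets, among them Cyp4a14, Vnn1, Acot2, Acot3 and Acot4. For 6 AhR targets the median was 0.03, from Lgals3 (-0.44) to Ugt1a6b (0.13). For 24 Nrf2 targets it was -0.01, from the carbonyl reductase Cbr3 (-0.36) to G6pdx (0.41), and for 26 PPAR alpha targets 0.11, from the fatty acid carrier Fabp4 (-0.14) to the fatty acid hydroxylase Cyp4a10 (1.45, standard error 0.78, edgeR adjusted p = 0.999). Among 19 xenobiotic receptors the bile acid receptor Nr1h4 was at 0.30 (standard error 0.11) and Nfe2l2 at 0.31 (standard error 0.16), both with an unadjusted p under 0.05. The glucocorticoid receptor Nr3c1 was at -0.20 (standard error 0.10), also with an unadjusted p under 0.05, and Esr1 was the lowest at -0.25. For 15 genes of heme metabolism the median was 0.05, from Urod (-0.16) to Hmox1 (0.37).

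In intermediary metabolism the medians were -0.16 for 23 genes of cholesterol synthesis, from Mvk (-0.36) to Stard4 (0.25), 0.12 for 21 of lipogenesis, with Pnpla3 the highest (0.46), and 0.06 for 19 of gluconeogenesis and fasting, from Pck1 (-0.50) to G6pc1 (0.73). The median of lipogenesis turned to -0.090 with the mice isolated at EA alone, and without Con0ppm replicate 1 those of cholesterol synthesis and of gluconeogenesis and fasting were -0.065 and -0.015. They were 0.05 for 27 genes of bile acid synthesis and transport, from Cyp7b1 (-0.18) to Cyp7a1, the rate-limiting enzyme of bile acid synthesis (0.80, standard error 0.54). Pericentral genes had a median of 0.05, from Gulo (-0.19) to the transcription factor Tbx3 (0.59), and periportal genes also 0.05, with the urea cycle enzyme Cps1 at 0.58 (standard error 0.23). No gene of these lists was called.

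Sex-biased genes of liver are under the control of growth hormone. Of 10 tested female-biased genes 9 had a log2 fold change above 0, with a median of 0.29, from Sult1e1 (-0.64) to Cyp3a16 (0.74). Of 27 male-biased and growth hormone genes 8 were above 0 and 19 below, with a median of -0.08, from Cish (-1.15) to Bcl6 (0.41). Several of the female-biased genes are also on the CAR and PXR list, and 0 genes were called.

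No gene of the stress and immune lists was called. Of 32 acute phase genes 4 were above 0 and 28 below, with a median of -0.17, from Mt2 (-1.02) to Saa2 (0.89), and with the mice isolated at EA alone the median was 0.00016. Of 27 interferon-stimulated genes 4 were above 0 and 23 below (median -0.13), from Zbp1 (-0.45) to the peptide transporter Tap1 (1.08, standard error 0.34, edgeR adjusted p = 0.999). Of 14 glucocorticoid and metallothionein genes 2 were above 0 (median -0.23), from Mt2 to Lpin1 (0.36), and with the mice isolated at EA alone this median was -0.02. Individual mice spanned a wide range: Saa1, an acute phase protein shown here after its values were seen, ran from 306 to 27579 CPM in the controls and from 108 to 15438 CPM at 50 ppm. Without the block and isolator terms the log2 fold change of Saa2 turned to -0.90 and that of Saa1 from 0.78 to -0.56. Immediate early genes had a median of -0.21, from Myc (-1.04) to Klf2 (0.31), which was -0.076 with EA mice alone. The p53 targets had a median near 0, from Gadd45g (-1.53, standard error 0.78) to Aen (0.28), and unfolded protein and heat shock genes one of -0.06, from Asns (-0.78) to Hsf1 (0.43). Circadian clock genes had a median of 0.24, from Rora (-0.15) to Dbp (0.95, standard error 0.66), and cell cycle genes one of -0.03, from Cdt1 (-0.41) to Plk1 (0.67).

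**Figure D5:**
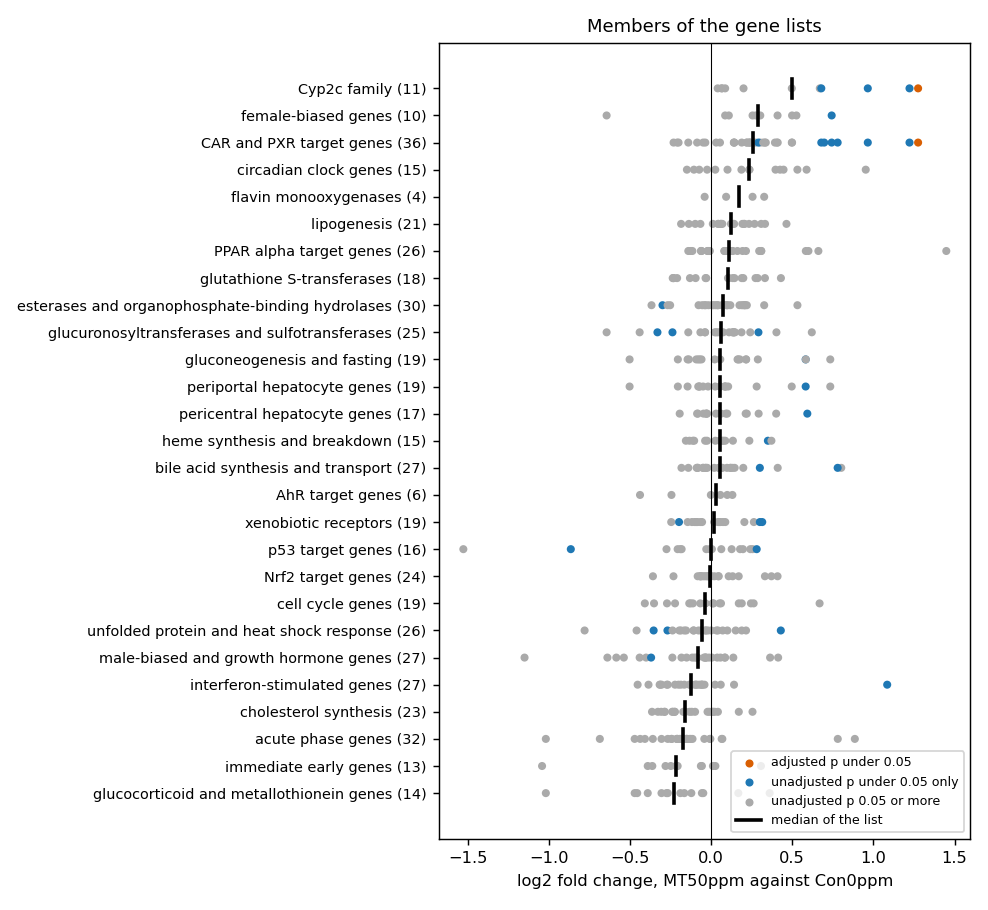
Log2 fold changes of MT50ppm against Con0ppm (horizontal axis) of the tested members of each gene list (vertical axis, number tested in brackets), with the median as a black bar. The Cyp2c family has the highest median (0.50), and Cyp2c29 is the sole member past the adjusted p.

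Markers of the cell types in liver gave 0 calls. The largest median difference was in the 4 tested erythroid genes, all below 0 with a median of -0.42, from Hba-a2 (-0.45) to Alas2 (-0.33). Their summed level was 34.4 to 91.8 CPM at 50 ppm and 36.4 to 157 CPM in the controls. Hepatocyte markers ran from Apoe (-0.14) to Cps1 (0.58) and endothelial markers from Pecam1 (-0.07) to Stab2 (0.16). Kupffer cell markers ran from Vsig4 (-0.13) to Adgre1 (0.21), with 7 of 8 tested above 0 and a median of 0.11. This median was 0.28 with the mice isolated at EA alone and 0.031 without Con0ppm replicate 1. T and NK cell markers ran from Cd3d (-0.06) to Nkg7 (0.47), B cell markers from Cd79b (-0.11) to Cd22 (0.07), neutrophil markers from S100a8 (0.00) to Ly6g (0.15) and stellate cell markers from Col3a1 (-0.57) to Pdgfrb (0.23). Spp1 for cholangiocytes (-0.16), Cela1 for acinar cells (-0.16) and Fabp4 for adipocytes (-0.14) were the sole markers of their cell types above the count limit, and the adipocyte marker Lep was at 0 in all 14 livers.

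The MT doses were also compared directly with each other, in the same model of all 84 mice. Against 100 ppm, 2 genes (0.0192%) were called, Cyp2c29 and Cyp2c55, and 3 (0.0288%) passed the adjusted p alone, a number that rose to 8 without MT50ppm replicate 4 and to 8 with the mice of the 2 groups alone. The third was Prkg1, a cGMP-dependent kinase, named after its value was seen, with a log2 fold change of 0.74 (standard error 0.15, edgeR adjusted p = 0.0287), higher at 50 ppm. Prkg1 no longer passed the adjusted p without MT50ppm replicate 5 (edgeR adjusted p = 0.148), replicate 2 (0.0629) or replicate 7 (0.0762). It also did not pass without the block and isolator terms, where the log2 fold change was 0.36 (edgeR adjusted p = 0.997). The same held with the mice of the 2 groups alone (edgeR adjusted p = 0.112) and with no filter on low counts (edgeR adjusted p = 0.102). DESeq2 gave Prkg1 no adjusted p. The CPM of Prkg1 overlapped, with 3.64 to 6.14 at 50 ppm and 2.08 to 6.73 at 100 ppm. The highest mice at 100 ppm, with 6.49 and 6.73 CPM, were isolated at EPA, and those isolated at EA ran from 2.08 to 3.20 CPM. With the mice isolated at EA alone the log2 fold change of Prkg1 was 0.83 (edgeR adjusted p = 0.0206). Cyp2c50, Cyp2c54 and Cyp3a11 were lower at 50 than at 100 ppm by log2 fold changes of -0.40, -0.58 and -0.59 without passing the adjustment. Against 25 ppm 0 genes (0%) were called by edgeR, with 315 at an unadjusted p under 0.05, and against 10 ppm 0 (0%), with 606. With the mice of the 2 groups alone 27 genes passed the adjusted p against 10 ppm at any fold, beside 0 in the model of all mice. By DESeq2 and limma-voom the counts of called genes against 25 and 10 ppm were also 0.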

How the data were processed

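Liver RNA was measured by TempO-Seq, sequenced at 50 bases. After trimming, the authors mapped the reads to mm39 with STAR, estimated gene counts for Ensembl release 106 by Partek E/M and deposited these estimated counts unnormalized. Of these expected counts 18.668% were not whole, since reads can be split between genes. A second table, of log2 values that the authors adjusted for block and isolator, was not used, since the model here starts from the counts. Gene names and coordinates came from GENCODE vM39 (GRCm39, the assembly of mm39), which named 17660 of 17695 identifiers. TempO-Seq detector oligos were not used here.

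Counts were rounded and fitted with edgeR 4.0.16 (quasi-likelihood test, TMM) in R 4.3.3, in 1 model of all 84 mice in 12 groups with block and RNA isolator, keeping the 10415 genes whose median count exceeded 8. Benjamini-Hochberg adjustment ran over these genes. limma 3.58.1 and DESeq2 1.42.0 were alternatives, and Python 3.11.15 with scipy 1.17.1 gave exact permutation tests. CPM used total counts, and within-block differences of CPM other than the exact tests used a pseudocount of 0.1. The fits were tested on simulated data. In the MT50ppm livers 3 counts, taken as the smallest measured level, equal 0.223 to 0.432 CPM, for counting error only, since PCR reads without molecular identifiers are not independent molecules. Pairs of libraries within a group differed by at least 13.1 chi-square units per gene, far above sampling noise, so no library was counted as a duplicate.

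Genes were named by rule: those with an adjusted p under 0.05, CAR and PXR or Cyp2c members with an unadjusted p under 0.05 with both receptors, the lowest and highest member of every other list, the 5 smallest p-values in each direction, Ache, and genes called between MT doses. One gene that the rule names is not reported here. The comparison, the lists and the rule were chosen with earlier results of these data known, and support nothing independently. Replicate numbers follow accession order. Alternatives left out each mouse in turn and changed the mice, covariates, scaling, filter, dispersion and test.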

Additional observations from a re-analysis of the deposited data

Results flagged for a closer look

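In a group of 7, a mouse is set apart here when its gap to the nearest other mouse is over 0.568 of the group's range, which chance alone brings about in roughly 1 group in 20. Among the genes shown by mouse, the highest MT50ppm mouse stood apart for Cyp2c50 (168 CPM), Cyp2c54 (698 CPM) and Nr1i3 (419 CPM), and in each it was the same mouse, replicate 4 of block 3. The highest control stood apart for Commd8 (55.4 CPM). The limit was applied to every gene shown by mouse in both groups, so some mice would meet it by chance. Cyp2c50 and Cyp2c54 share sequence and are not separate observations. The total counts of the shallow MT50ppm mouse did not meet this limit.

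The effect at 50 ppm differed from that at 100 ppm in direct contrasts for Cyp2c29 (log2 fold change -1.27) and Cyp2c55 (log2 fold change -1.55), both lower at 50 ppm (edgeR adjusted p = 5.40e-04 and 5.95e-04), with all 7 mice at 50 ppm below all 7 at 100 ppm for Cyp2c29.

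Cyp2b10, left out of the tests by its low counts, reached 2.68 CPM in the highest MT50ppm mouse, above the highest control at 0.178 CPM.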

How the results depend on the processing

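The number of genes called between MT50ppm and Con0ppm was 1, Cyp2c29, under every alternative run, and its log2 fold change lay between 1.17 and 1.46 (adjusted p at most 0.0162, with the 14 mice alone). Against 100 ppm the count was 1 with DESeq2, where Cyp2c55 received no adjusted p, beside 2. Against 10 ppm it was 1 with the mice of the 2 groups alone, Creld2, beside 0. Called counts were otherwise within 1.5 times. The number of CAR and PXR targets higher at an unadjusted p under 0.05 was 7 to 12 when a mouse was left out, 12 without Con0ppm replicate 7, beside 8. The difference in mean total counts, MT50ppm minus control, was -785084 and, without the shallow mouse, -110531 (exact permutation p = 0.448 and 0.876).

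Small medians of gene lists with no call moved too. With EA mice alone they were 0.022 for PPAR alpha targets and 0.038 for p53 targets, and without Con0ppm replicate 1 they were 0.049 for Nrf2 targets, 0.0027 for periportal genes, -0.018 for unfolded protein and heat shock genes and -0.0041 for cell cycle genes.

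Directions turned for uncalled genes. Without the block and isolator terms the log2 fold changes were 0.12 for Gulo, -0.90 for Saa2, -0.046 for Bcl6, -0.29 for S100a8, 0.026 for Pecam1, -0.043 for Prkg1 and -0.56 for Saa1. With limma-voom they were 0.027 for Fmo1, -0.29 for Saa2, 0.070 for Cd79b, -0.23 for S100a8 and -0.22 for Saa1, and with no filter -0.016 for S100a8. With the mice of the 2 groups alone they were 0.025 for Vsig4, 0.048 for Cd79b and -0.068 for Cd22, and with EA mice alone 0.037 for Vsig4, 0.062 for Cd79b, -0.059 for Cd22 and 0.058 for Cela1. Leaving out each mouse gave -0.024 to 0.19 for Ugt1a6b, -0.12 to 0.12 for Fmo1, -0.31 to 0.13 for Vsig4, -0.21 to 0.18 for Cd3d, -0.36 to 0.024 for Cd79b, -0.12 to 0.25 for Cd22, -0.41 to 0.20 for S100a8, -0.019 to 0.28 for Ly6g and -0.15 to 0.015 for Pecam1. The cause was not tested. No paired analysis was possible because replicate numbers were given in accession order and pair no mice. Genes near 1 CPM rest on few counts, and differences there may not be detectable at this depth.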

Other observations

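The MT50ppm mice were not alike in their xenobiotic and acute phase genes. Replicate 4 of block 3 had the highest CPM of the 7 MT50ppm mice in 18 of 36 CAR and PXR targets (50%) and in 9 of 11 Cyp2c genes, against 14.7% of all 10415 genes. The same mouse had the lowest CPM in 25 of 32 acute phase genes and in 14 of 27 interferon-stimulated genes, against 19.04% of all genes. Its Saa1 level was 108 CPM, while the other MT50ppm mice ran from 2741 to 15438 CPM. It was not high for Cyp2b10, with 1 count. In the controls, acute phase genes were lowest in replicate 7 (15 of 32) and replicate 1 (13 of 32), whose Saa1 levels were 912 and 306 CPM, while the highest values were shared by replicates 3 and 5 (13 of 32 each). These mice were singled out after their values were seen, list members are not independent, and no test was made.

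The 2 MT50ppm mice of block 4 had the highest values of Cyp2c55 (7.94 and 7.79 CPM) and Cyp2b10 (2.37 and 2.68 CPM), and the 2 control mice of block 4 also had the highest control values of Cyp2c55 (4.00 and 3.58 CPM) and Cyp2c29 (1198 and 1579 CPM).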
